A study of Ovis aries with 6 samples.

Results

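RAB GTPases and the TBC1D proteins that act on them were followed in the longissimus dorsi muscle of 2 sheep breeds. The members were the rows of the gene count table whose symbol begins with RAB or TBC1D followed by a digit, which gave 90 of 23144 genes. Of these, 54 were RAB GTPases, 28 were TBC1D genes and 8 were partners of RAB proteins that carry a RAB symbol (RAB3GAP1, RAB3GAP2, RAB3IL1, RAB3IP and RAB11FIP1 to RAB11FIP4). There were 3 animals of the Qianhua Mutton Merino (QHMM) and 3 of the Small Tail Han (STH), and each animal gave 1 library. All were females aged 1 year that were kept in 1 environment. The paper names no treatment, and live weight was taken after a fast before slaughter. Poly(A) RNA was sequenced on the Ion Proton system. Breed was the only difference that the labels give between the groups, and the single comparison was STH vs. QHMM.

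RAB GTPases are small switch proteins that mark the membranes of the cell. In the GTP-bound state they recruit the motors, tethers and coats that move a vesicle and let it fuse. Guanine nucleotide exchange factors, many of them DENN domain proteins, turn them on, and GTPase-activating proteins with a TBC domain turn them off. In skeletal muscle the best known case is the glucose transporter GLUT4, encoded by SLC2A4. TBC1D4 (AS160) and TBC1D1 hold GLUT4 vesicles inside the fibre until insulin or contraction leads to their phosphorylation, after which RAB proteins such as RAB8A, RAB10, RAB13 and RAB14 can bring the vesicles to the surface.

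Total counts ranged from 10982191 to 14334544 per library. Across the tested members, libraries of 1 breed had Spearman correlations of 0.959 to 0.976 in 6 pairs, and libraries of different breeds of 0.925 to 0.975 in 9 pairs. The muscle markers ACTA1, CKM, TTN and DES were high in all 6 libraries, TNNT3 was listed at 0, and MB and MYH2 had no row under those symbols. Markers of some other fibres and cells differed between the breeds. All 6 measured slow fibre genes were lower in STH, 3 of them past the test, and their summed TMM-normalized count (a count scaled to a common library size) was 396723 to 435319 in QHMM and 152856 to 182596 in STH. Of 5 adipocyte genes, 4 passed the test and were lower in STH (ADIPOQ, PLIN1, LEP and CIDEC), and the summed count was 1491 to 4987 in QHMM and 669 to 1033 in STH, with LEP at 0 in 1 STH library. Of 3 fibroblast genes 0 were called, but COL1A1 was lower in all STH libraries (log2 fold change -1.30, FDR 0.113), and the summed count was 10609 to 17119 in QHMM and 4447 to 8947 in STH. Of the 3 endothelial and 5 leucocyte genes measured, 0 were called and 0 had an unadjusted p below 0.05. The part of these cells in the results on RAB and TBC1D genes was not tested, and in bulk muscle fewer cells of a type and less RNA per cell cannot be told apart.

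Levels were compared between genes per length, as RPKM, which scales reads by gene length and by the total of the library. RAB7A, which brings late endosomes to the lysosome, had the highest level, with 199 ± 19.5 RPKM in QHMM and 211 ± 19.2 in STH (mean ± SD, n = 3). It was followed by RAB11B of the recycling endosome (75.0 ± 8.66 in QHMM, 102 ± 1.25 in STH), RAB12, a GTPase of receptor degradation and autophagy (48.9 ± 18.8 and 69.0 ± 17.1), and RAB1B, which acts between the endoplasmic reticulum and the Golgi (50.7 ± 1.93 and 53.1 ± 5.52). RAB1A, RAB5B, RAB2A and RAB5C came next, with means over all libraries from 36.8 to 47.4 RPKM. RPKM is not scaled by library composition. In TMM-normalized counts the breeds overlapped for RAB11B (log2 fold change 0.33, FDR 0.499). Over all libraries together, the range of each gene from RAB11B to RAB5C overlapped that of the next in the order. Only RAB7A lay above every other member in all libraries. Compared within each library, RAB11B exceeded RAB12. The order depends on the gene models. The length implied by RPKM was 624 bases for RAB7A and 618 bases for RAB1A, both multiples of 3, and 3215 bases for RAB5B. By summed reads the order was RAB5B (11560), RAB12 (10635), RAB7A (9880) and RAB1B (9006).

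**Figure D1:**
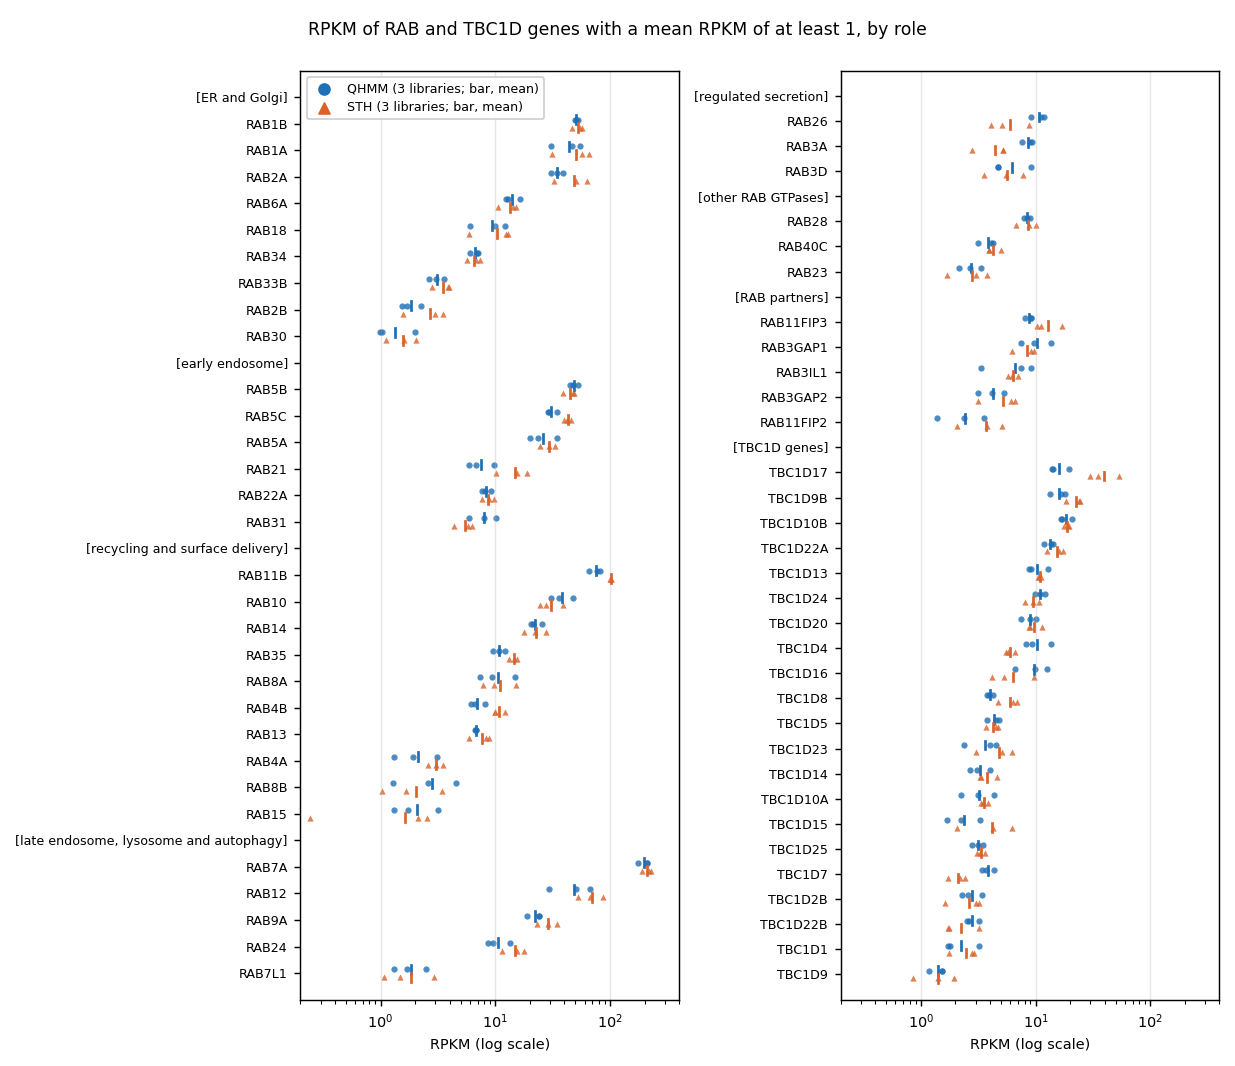
RPKM (log scale) of the RAB and TBC1D genes with a mean of at least 1 RPKM, grouped by the role of the protein; each point is 1 library and each bar the mean of 3 libraries of a breed. RAB7A lies near 200 RPKM in both breeds, most genes lie between 1 and 60 RPKM, and the points of the breeds mix in most rows.

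At the other end, 20 members did not pass the filter on low counts and were not tested: RAB3B, RAB3C, RAB6B, RAB9B, RAB17, RAB19, RAB20, RAB25, RAB27B, RAB33A, RAB37, RAB38, RAB39A, RAB39B, RAB40B, RAB42, RAB44, RAB11FIP4, TBC1D10C and TBC1D21. None of these had more than 21 counts in a library or 52 counts in all. RAB17 and RAB25, known from epithelia, had 0 counts in all 6 libraries.

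The breeds were compared with the edgeR quasi-likelihood test, adjusted over 12506 genes. A gene was called when its FDR was below 0.05 and its change above 1.5-fold. Of the 70 members tested, 0 were called, where 3.45% of all tested genes were (1.62% higher and 1.83% lower in STH). An unadjusted p below 0.05 was found for 8 members, or 11.4%, against 19.2% of all tested genes; 2 of them were higher and 6 lower in STH. DESeq2 called 2 members, TBC1D17 and TBC1D4, against 7.80% of all tested genes. TBC1D17, TBC1D4 or both were also called under 5 other settings with all libraries. These were no filter on low counts (2 members, 4.56% of all tested genes), at least 10 counts in every library (1, 3.95%), limma on log2(RPKM + 1) (1, 3.11%), limma on log2(RPKM + 0.1) (1, 2.94%), and a replicate block (1, 3.65%). The libraries of the breeds did not overlap in 16 members (9 higher and 7 lower in STH), or 22.9%, against 24.7% of all tested genes (13.0% higher, 11.7% lower). Beyond 1.5-fold lay 11 members, or 15.7%, against 26.7%. The median log2 fold change was -0.02 for the members and 0.02 for all tested genes, with 34 members above 0 and 36 below. Thus by each of these counts the family stood at or under the share of the whole table.

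**Figure D2:**
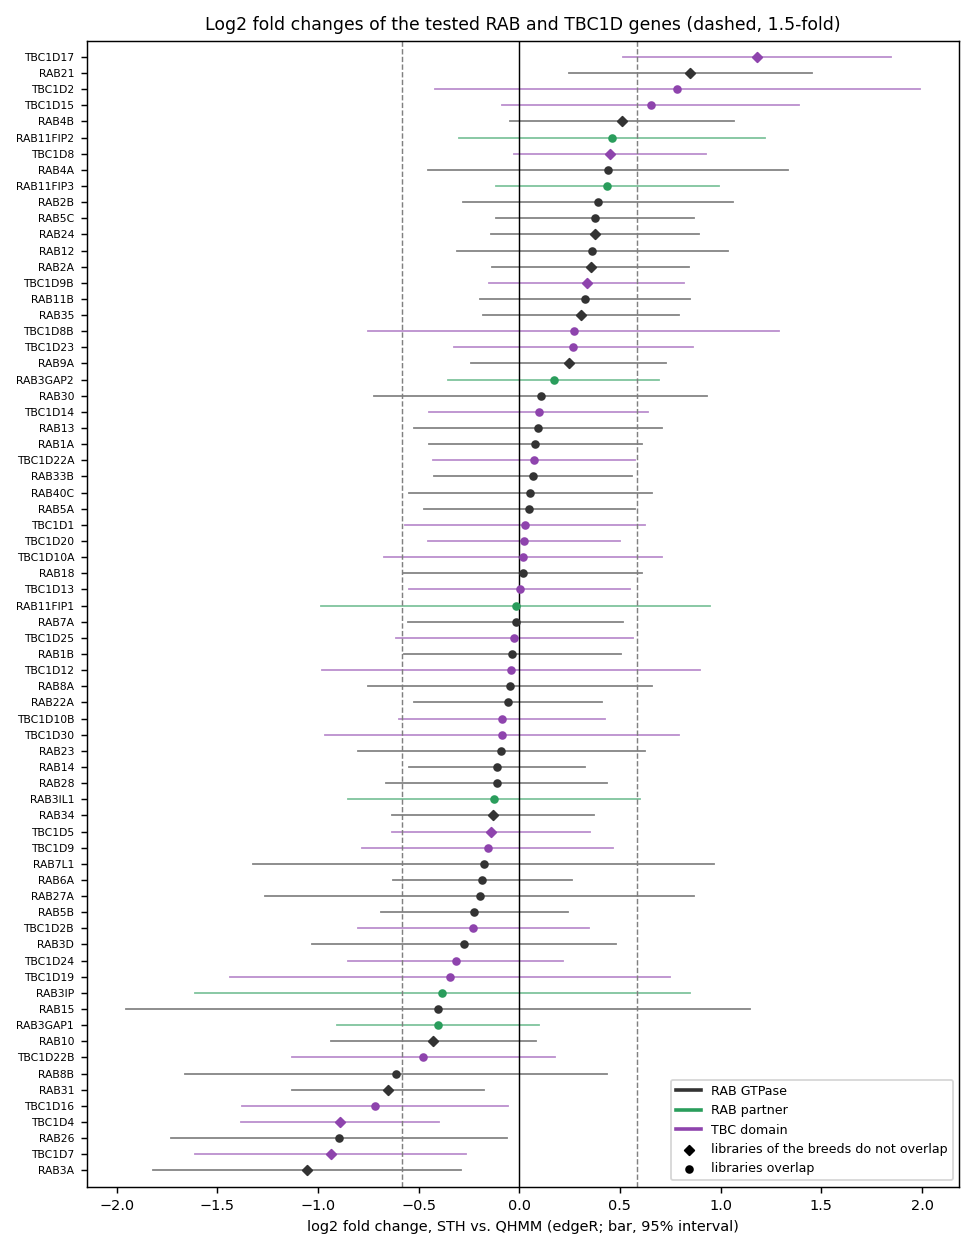
Log2 fold changes (STH vs. QHMM, edgeR) of the 70 tested members with 95% intervals; colour gives the class of the gene, diamonds mark genes whose breeds do not overlap, and dashed lines mark 1.5-fold. TBC1D17 stands at the upper end with 1.18 and RAB3A at the lower end with -1.05, and most intervals include 0.

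TBC1D4, the Akt-regulated brake on GLUT4 vesicles, came nearest to the threshold. Its TMM-normalized counts were 622, 666 and 893 in QHMM, against 379, 353 and 445 in STH. All 3 STH libraries lay below all 3 QHMM libraries. The log2 fold change was -0.89 (SE 0.22, 95% interval -1.38 to -0.40) with an FDR of 0.0553 by edgeR, which misses the threshold. DESeq2 called it (FDR 0.0130). In all it was called in 3 of 18 alternative settings, fits with 1 library left out included, and the FDR reached 0.241 at most. With any 1 library left out, the change stayed between -1.01 and -0.71.

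TBC1D1, the paralog of TBC1D4 that answers to contraction and energy stress, had counts of 118, 133 and 206 in QHMM and of 162, 167 and 138 in STH. The breeds overlapped. Its log2 fold change was 0.03 (SE 0.27, FDR 0.969), and the interval from -0.57 to 0.62 leaves room for a change of up to about 1.5-fold either way. TBC1D4 exceeded TBC1D1 in RPKM in every library. The ratio was 5.13, 4.85 and 4.21 in the QHMM libraries and 2.28, 2.06 and 3.14 in the STH libraries, so that the highest STH value lay under the lowest QHMM value. The mean log2 ratio was 0.95 lower in STH (-0.95; two-sided exact permutation p = 0.10, the smallest that 3 against 3 libraries allow). Of the RPKM of both genes, TBC1D4 held 82.5 ± 1.49% in QHMM and 70.9 ± 4.44% in STH (SD, n = 3).

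Of the 15 genes listed for glucose transporter traffic, 14 had a row and all 14 were tested; RAB11A was not analysed here. None was called by edgeR, and DESeq2 called TBC1D4 alone. An unadjusted p below 0.05 was found for 1 (TBC1D4), or 7.14%, against 19.2% of all tested genes. There were 8 log2 fold changes above 0 and 6 below, with a median of 0.02. The breeds did not overlap in 4 of them, or 28.6%, close to the 24.7% of all tested genes: RAB4B and RAB35 were higher and TBC1D4 and RAB10 lower in STH.

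RAB10, which drives insertion of GLUT4 in fat cells, had counts of 567, 571 and 740.1 in QHMM and of 522, 357 and 516 in STH. Its log2 fold change was -0.43 (SE 0.23, FDR 0.345). RAB4B, a GTPase of fast recycling, had counts of 126, 123 and 94.4 in QHMM and of 130.4, 175 and 184 in STH. These groups were separated by only the gap between 126 and 130.4, and the log2 fold change was 0.51 (SE 0.25, FDR 0.301). RAB35, which also returns cargo to the surface, had 145, 152 and 159 in QHMM and 177, 177 and 211 in STH (0.31, SE 0.22, FDR 0.493).

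Of the RAB proteins downstream of TBC1D4 that were named at the start, RAB8A, RAB13 and RAB14 had log2 fold changes near 0. RAB10, described above, was lower in all STH libraries. RAB8A had a log2 fold change of -0.05 (95% interval -0.75 to 0.66), RAB13 of 0.09 (-0.52 to 0.71) and RAB14 of -0.11 (-0.55 to 0.32). RAB14 had 829, 943 and 973 counts in QHMM and 911, 801 and 829 in STH, and its interval excludes a 1.5-fold change in either direction. For RAB8A and RAB13 the intervals do not. RAB8B was low and uneven, with 67.0, 22.2 and 37.6 in QHMM and 42.1, 22.4 and 17.9 in STH (log2 fold change -0.61, SE 0.47, FDR 0.529). TBC1D13, a GTPase-activating protein for RAB35, had a log2 fold change of 0.00 (-0.55 to 0.55). RAB4A, RAB5A, RAB11B and RAB28 had changes of 0.44, 0.05, 0.33 and -0.11, all with overlapping breeds.

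**Figure D3:**
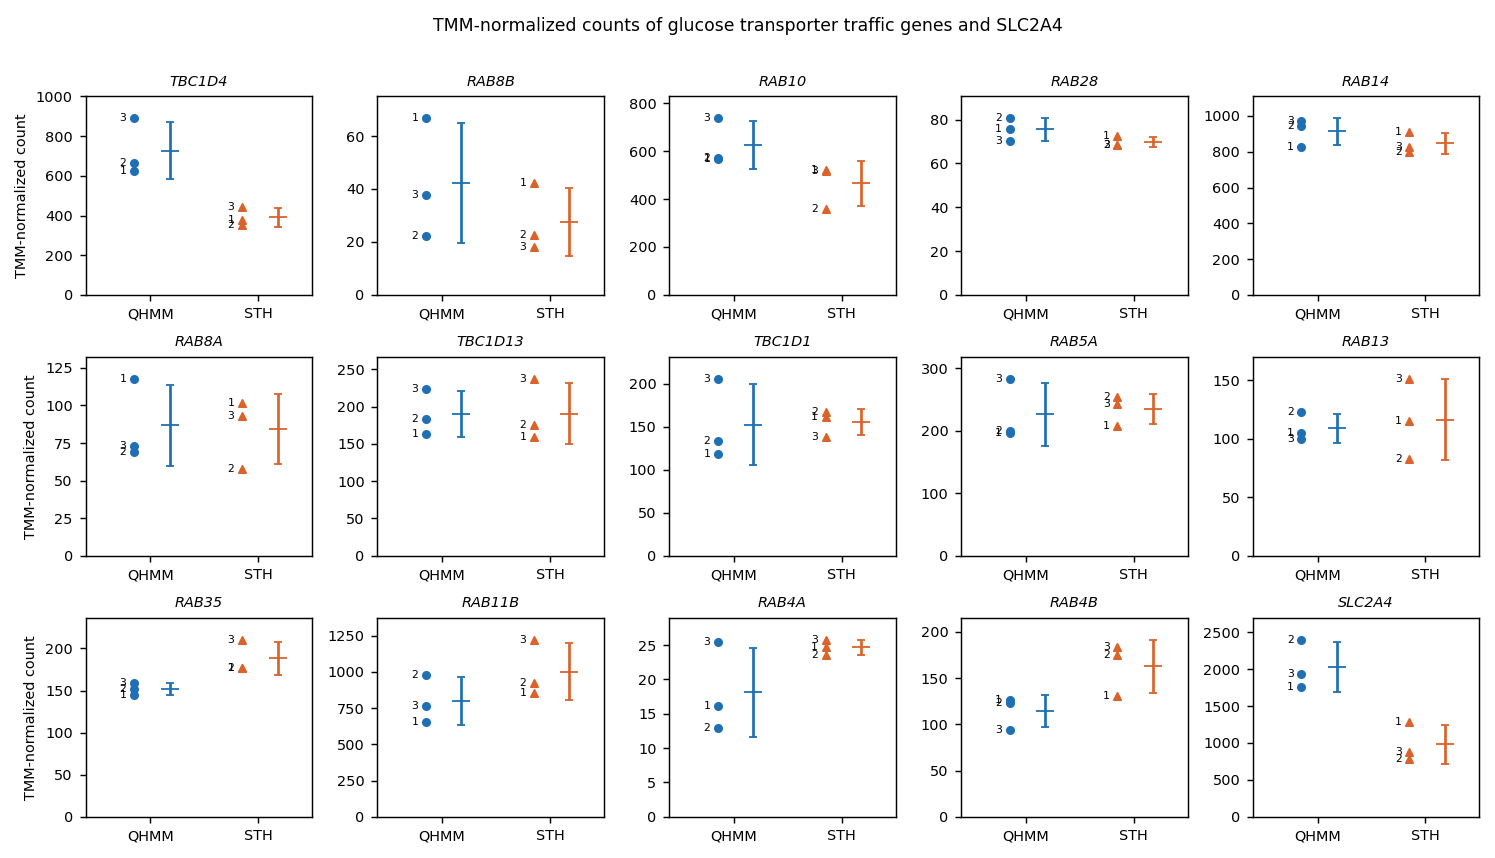
TMM-normalized counts of the 14 glucose transporter traffic members and of SLC2A4, ordered by log2 fold change; numbers name the library, and the bar and whisker give mean and SD of 3 libraries. TBC1D4 and SLC2A4 lie lower in all STH libraries than in all QHMM libraries, whereas RAB14 and TBC1D1 overlap.

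The cargo and docking genes of these vesicles lie outside the rule and were counted beside it. Of 27 listed, 25 had a row and were tested, and 0 were called. Of the 25, 3 had an unadjusted p below 0.05, where 19.2% of all tested genes had one. In 6 of the 25 the breeds did not overlap (3 higher and 3 lower in STH), as in 24.7% of all tested genes. SLC2A4 itself had TMM-normalized counts of 1756, 2401 and 1928 in QHMM and of 1284, 787 and 873 in STH, with no overlap, and a log2 fold change of -1.05 (SE 0.25, FDR 0.0508). SORT1, the sorting receptor that loads GLUT4 into its vesicles, had 449, 344 and 508 in QHMM and 541, 1576 and 973 in STH (1.25, SE 0.35, FDR 0.0787). USP25, which binds the tether of the stored vesicles, differed by 0.82 on the log2 scale (SE 0.26, FDR 0.111). DESeq2 called 2 genes of this list, where it called 7.80% of all tested genes.

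TBC1D17, a paralog of the mitochondrial RAB7 regulator TBC1D15, had the highest fold change of the members. Its counts were 451, 739 and 439 in QHMM, against 805, 1559.8 and 1325 in STH. The lowest STH library lay just above the highest QHMM library. The log2 fold change was 1.18 (SE 0.30, interval 0.52 to 1.85), a 2.27-fold higher level, with an FDR of 0.0603. It was called in 6 of the 18 alternative settings, with FDR values from 0.00751 to 0.193. These were DESeq2 (FDR 0.00751), no filter on low counts, the replicate block and limma on RPKM with a filter at both pseudocounts. The last was the fit without STH replicate 1, its lowest STH library (log2 fold change 1.40, FDR 0.0253). Leaving out the lowest STH library raises the STH mean by construction, so this call adds no support. TBC1D15, named after its values were seen, also lay higher in 2 STH libraries, but the breeds overlapped (83.0, 74.9 and 119 in QHMM; 133, 210.5 and 91.9 in STH; 0.65, SE 0.33, FDR 0.318).

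TBC1D7, which is a subunit of the TSC complex that restrains mTORC1, had counts of 106, 108 and 81.2 in QHMM and of 45.4, 38.5 and 70.6 in STH. All STH libraries were lower, and the log2 fold change was -0.94 (SE 0.30, FDR 0.123). TBC1D16, a GTPase-activating protein for RAB4A, had 286, 228 and 355 in QHMM and 234, 111 and 183 in STH. Its breeds overlapped (log2 fold change -0.72, SE 0.30, FDR 0.220); it was named after its values were seen. TBC1D8 had 206, 229 and 179.7 in QHMM and 261, 309.8 and 270.0 in STH, without overlap (0.45, SE 0.22, FDR 0.287).

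Over the 26 tested TBC1D genes, 13 log2 fold changes were above and 13 below 0, with a median of -0.01. Per length the most abundant were TBC1D17, TBC1D9B and TBC1D10B. TBC1D10B, a broad GTPase-activating protein, was near even (18.2 ± 2.28 RPKM in QHMM and 18.8 ± 1.03 in STH; log2 fold change -0.08). TBC1D9B had 861, 942 and 627 TMM-normalized counts in QHMM and 953, 1066 and 1045 in STH (0.33, SE 0.22, FDR 0.451). TBC1D5, which acts with retromer on RAB7, was among the steadiest members, with 137, 133 and 142 in QHMM and 119, 124 and 131 in STH. These groups did not overlap although the log2 fold change was only -0.14 (SE 0.22, FDR 0.781).

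Among the early endosome GTPases, a pair of genes lay on opposite sides. RAB21, which guides integrins through endosomes, had counts of 58.0, 59.7 and 81.2 in QHMM and of 111, 146 and 102 in STH. All STH libraries were higher (log2 fold change 0.85, SE 0.27, FDR 0.119). RAB31, which works between the trans-Golgi and endosomes, had 428, 382 and 540.1 in QHMM and 267, 311 and 281 in STH. All STH libraries were lower (log2 fold change -0.65, SE 0.22, FDR 0.129). RAB21, RAB31, RAB3A, TBC1D4 and TBC1D7 are on the study's list of changed genes, which was made from these same libraries, so that list is no independent evidence of their direction.

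The RAB5 paralogs, the master switches of the early endosome, were compared by their proportions as a description. RAB5B held 46.0 ± 2.61% of their summed RPKM in QHMM and 38.4 ± 2.36% in STH, RAB5C held 29.5 ± 4.40% and 36.7 ± 3.07%, and RAB5A held 24.6 ± 4.87% and 24.8 ± 1.54% (SD, n = 3). The RAB5B share was 43.8, 48.8 and 45.2% in the QHMM libraries and 41.1, 37.4 and 36.8% in the STH libraries, without overlap; the shares were not tested. The single genes had log2 fold changes of -0.22 (RAB5B, SE 0.21, FDR 0.610), 0.38 (RAB5C, SE 0.22, FDR 0.396) and 0.05 (RAB5A, SE 0.24, FDR 0.937). Breeds overlapped for each of these genes. In other families 1 paralog held nearly all of the RPKM in every library, such as RAB2A (93.8 to 96.3% of the RAB2 pair) and RAB6A (98.3% or more of the RAB6 pair). RAB1A and RAB1B were close to equal, with RAB1A at 45.7 ± 8.16% in QHMM and 48.0 ± 11.1% in STH.

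**Figure D4:**
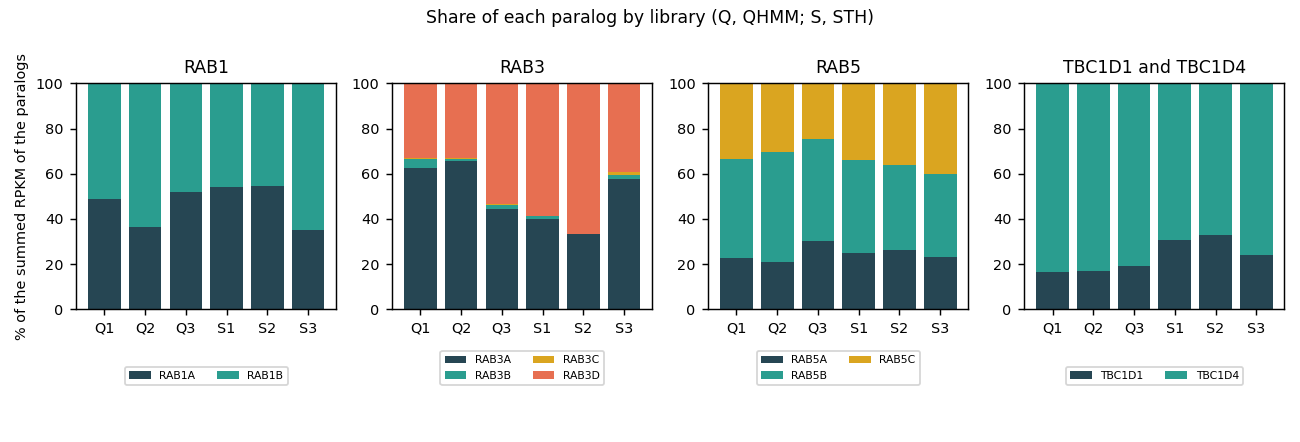
Percentage of the summed RPKM of 4 paralog groups (RAB1, RAB3, RAB5, and TBC1D1 with TBC1D4) held by each gene, with 1 stacked bar per library (Q, QHMM; S, STH). The TBC1D4 share is 80.8 to 83.7% for QHMM and 67.3 to 75.8% for STH, whereas the RAB1 shares overlap.

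Of the 8 secretory GTPases 4 were tested, and 0 were called. All 4 log2 fold changes were below 0, with a median of -0.58 against 0.02 over all tested genes. An unadjusted p below 0.05 was found for 2 of the 4 (19.2% of all tested genes), and the breeds did not overlap in 1 of the 4, or 25.0%, against 24.7%. Their summed RPKM, with the untested genes included, was 28.0 ± 0.653 in QHMM and 17.5 ± 3.30 in STH, and this sum was not tested. RAB3A, the RAB protein of regulated exocytosis at nerve endings and endocrine cells, had counts of 92.8, 116 and 78.2 in QHMM and of 46.2, 26.7 and 65.0 in STH. All STH libraries were lower (log2 fold change -1.05, SE 0.35, FDR 0.126). RAB26, a GTPase of secretory granules that was named after its values were seen, had 187, 208 and 142 in QHMM and 67.7, 58.8 and 164 in STH. STH replicate 3 lay inside the QHMM range, and the log2 fold change was -0.89 (SE 0.38, FDR 0.227). Without that library, the highest of STH, it was -1.49 with an FDR of 0.0343 by edgeR, and the gene was called. Leaving out the highest STH library lowers the STH mean by construction. RAB26 was called in only 1 of the 18 alternative settings, and its FDR reached 0.516. RAB3D and RAB27A had changes of -0.28 and -0.20 with overlapping breeds. Of the nerve markers, S100B had a log2 fold change of -0.59 and SOX10 of 0.38 with overlapping breeds, and neither was called. Their part in the secretory genes was not tested.

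**Figure D5:**
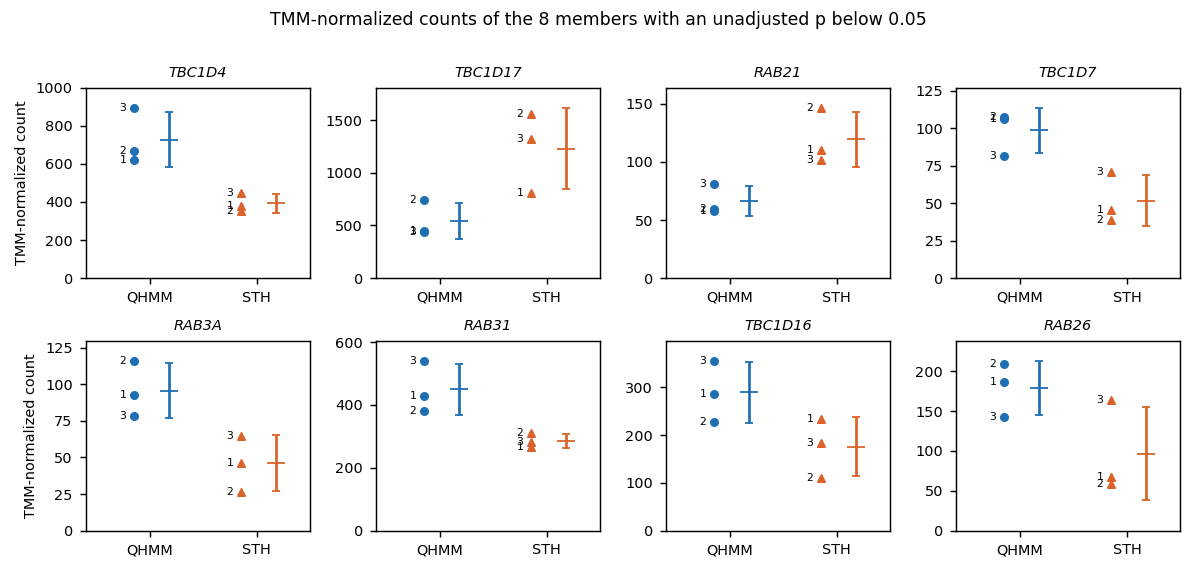
TMM-normalized counts of the 8 members with an unadjusted p below 0.05, by breed; numbers name the library, and the bar and whisker give mean and SD of 3 libraries. In 6 panels the breeds do not overlap, and in TBC1D16 and RAB26 1 STH library reaches into the QHMM range.

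The GTPases of the endoplasmic reticulum and Golgi had 9 tested genes with log2 fold changes from -0.18 (RAB6A) to 0.39 (RAB2B). RAB2A had counts of 923, 973 and 1038 in QHMM and of 1153, 1552 and 1043 in STH, so that the lowest STH library lay just above the highest QHMM library (0.35, SE 0.22, FDR 0.426). RAB34 had the smallest spread in QHMM among members with a mean count of at least 50, with 114, 118 and 115 against 102, 104 and 111 in STH. Of the 5 tested genes of late endosomes and autophagy, RAB24 and RAB9A were higher in STH without overlap, as were 13.0% of all tested genes, and 0 of the 5 had an unadjusted p below 0.05. RAB24 had 121, 132 and 169 in QHMM and 192, 183 and 173 in STH (0.38, SE 0.23, FDR 0.419). RAB7A was even, with 1405, 1984 and 1649.7 in QHMM and 1523, 1386 and 2066 in STH (-0.02, interval -0.55 to 0.52). RAB12 rested on 1 library: its counts were 901, 1821 and 2010.0 in QHMM, against 1734, 2434 and 1917 in STH. The log2 fold change of 0.36 became 0.06 without QHMM replicate 1.

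Of the 7 tested RAB partners, 0 were called and 0 were without overlap, against 3.45% and 24.7% of all tested genes. RAB3GAP1, the catalytic subunit of the RAB3 GTPase-activating complex, differed by -0.41 on the log2 scale (SE 0.23, FDR 0.364), and its partner RAB3GAP2 of 0.17 (SE 0.24, FDR 0.748). RAB11FIP3, an effector of RAB11, had 227, 239 and 220.3 in QHMM and 215, 388 and 326 in STH (0.44, SE 0.25, FDR 0.378).

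The enzymes that maintain the RAB cycle were counted from 3 further lists. All 8 genes of prenylation and recycling were tested and 0 were called, with log2 fold changes from -0.45 for RABGGTA, a subunit of the enzyme that attaches the lipid anchor, to 0.48 for its partner RABGGTB; 0 of the 8 had an unadjusted p below 0.05. Of 29 exchange factors 26 had a row and 25 were tested, 0 were called, and 2 had an unadjusted p below 0.05: HPS1, part of an exchange complex for lysosome-related organelles (0.60, FDR 0.154), and MADD, the exchange factor of RAB3 (-0.64, FDR 0.205). These 2 made up 8.0% of the 25, against 19.2% of all tested genes. Of 10 other TBC domain genes 8 had a row and were tested, and 0 were called. SGSM1 alone had an unadjusted p below 0.05 (0.99, FDR 0.226), or 12.5% of the 8, against 19.2%. DESeq2 called 0 genes in each of these 3 lists as well.

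The spread between animals was like that of the whole table. For the 56 members with a mean count of at least 50, the median coefficient of variation was 17.4% in QHMM and 19.0% in STH, against 18.4% and 21.4% over 9218 genes. The widest members in STH were RAB26 (60.1%), RAB3A (41.6%) and TBC1D15 (41.5%), and in QHMM RAB3IL1 (38.5%) and RAB12 (37.6%). RAB and TBC1D reads may be shared with neighbours or near copies. Of the 88 members matched in a RefSeq annotation of another assembly, 39 overlap another gene there, RAB31, RAB24, TBC1D1, TBC1D4, TBC1D7, TBC1D8 and TBC1D16 among them, and whether counting used strand is not given in the sources used here.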

How the data were processed

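Longissimus dorsi RNA of 3 QHMM and 3 STH sheep was measured, with 1 library per animal and groups taken from the breed label. Reads from the Ion Proton were mapped by the authors against sheep assembly Oar 3.1 (named in the labels); they kept uniquely mapped reads and deposited the count of reads per gene. They also deposited RPKM values, which scale each count by gene length and library total but not by library composition. The aligner, counting program and annotation release are not given in the sources used here. Among the RPKM rows, 25 whose gene names had become dates were left out.

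Counts were tested in R 4.3.3 with edgeR 4.0.16 (TMM, filterByExpr on breed, glmQLFit and glmQLFTest), fitted on all genes and adjusted by Benjamini-Hochberg over 12506 genes. The thresholds were an FDR of 0.05 and a change of 1.5-fold, as in the study's methods, whose EBSeq program was not used here. The SE came from the log2 fold change and the F statistic. DESeq2 1.42.0, limma 3.58.1 on log2(RPKM + 1), other filters and normalizations, and leaving out each library were alternatives. The fit was tested on simulated data. P-values measure the spread between these animals, and precision rests on 10982191 to 14334544 counts per library.

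Named were members called, the glucose transporter traffic list, the 5 members on the study's list, the 8 highest in RPKM, the 10 with the largest change among those without overlap of the breeds, and the untested members by name. Genes outside this rule were named from the fixed lists, or to describe a role or the spread after their values were seen. Members and lists were chosen with earlier results of these data known. Gene names of 88 members were matched in a RefSeq table (ARS-UI_Ramb_v3.0), used only for neighbours; RAB3D and RAB7L1 had no match. Some marker genes are not reported here. No sequences are printed.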

Additional observations from a re-analysis of the deposited data

How the results depend on the processing

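With 3 animals per breed, the number of RAB and TBC1D genes called depended on the test, between 0 and 2. It was 2 with DESeq2 and 2 with no filter on low counts (TBC1D17 and TBC1D4 in both), 1 with at least 10 counts in every library (TBC1D4, FDR 0.0462), 1 with limma on log2(RPKM + 1), 1 with limma on log2(RPKM + 0.1), and 1 with the replicate block (each time TBC1D17), and 0 to 1 with 1 library left out. The labels state no pairing of animals by replicate number. Deviations of same-numbered libraries had correlations of 0.23, -0.04 and -0.13, and those of differently numbered libraries ran from -0.26 to 0.29. With 3 libraries per breed these values cannot decide whether same-numbered libraries share anything. The block gave 457 called genes against 432 and 1 member, TBC1D17 (log2 fold change 1.17, FDR 0.0349). Of the glucose transporter traffic members, 1 (TBC1D4) was called with DESeq2, 1 with at least 10 counts in every library, and 1 with no filter. The members' median log2 fold change was 0.11 and 0.10 with limma on log2(RPKM + 0.1) and log2(RPKM + 1), where the median of all genes was 0.14 and 0.12, 0.049 with limma and no filter, and -0.058 with no filter on counts. With 1 library left out it ranged from -0.067 to 0.017. The cause of these shifts was not tested. Over all genes, 975 were called with DESeq2, 806 with no filter, 78 with limma and no filter, and 131, 208 and 150 without QHMM replicates 1, 2 and 3 and 183 without STH replicate 2, against 432. Limma on log2(RPKM + 1) called 212 higher and 134 lower genes, where edgeR on counts called 203 and 229, and on log2(RPKM + 0.1) it called 203 and 125.

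Members near 0 changed sign. With the 3 limma settings on RPKM (pseudocounts of 0.1 and 1, and 1 with no filter), RAB14 was 0.0045 and 0.0049, RAB1B 0.060 and 0.059, RAB28 0.0017 and 0.0031, RAB7A 0.089 and 0.088, and RAB8A 0.071 and 0.065. TBC1D1 was -0.0024 with at least 10 counts in every library. TBC1D13 was -0.016 with DESeq2, -0.029 with at least 10 counts, -0.010 with no filter, -0.0050 with the block, -0.025 with upper-quartile normalization and -0.018 without the 20 most abundant genes. With 1 library left out, the ranges were -0.14 to 0.27 for RAB13, -0.056 to 0.24 for RAB1A, -0.26 to 0.10 for RAB1B, -0.067 to 0.25 for RAB5A, -0.21 to 0.12 for RAB7A, -0.22 to 0.22 for RAB8A, -0.15 to 0.31 for TBC1D1 and -0.18 to 0.14 for TBC1D13. The difference between the breeds (STH minus QHMM) in the log2 ratio of TBC1D4 to TBC1D1 stayed between -1.12 and -0.82 with 1 library left out.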
